A study of Bos taurus with 12 samples.

Results

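The insulin-like growth factor genes described here are the ligands IGF1 and IGF2, the receptor IGF1R and the binding proteins IGFBP1 to IGFBP6. They were taken by gene name from the probe annotation of the array. All 9 genes had a probe, 10 probes in all, among 6626 named genes on 6941 probes, and each gene is described by its brightest probe. The samples were endometrial biopsies of Japanese-Black cows taken on day 15 of the estrous cycle, in early September (summer) or mid-November (autumn) of 2 consecutive years. The CL side is the uterine horn next to the ovary that carries the corpus luteum, the progesterone-secreting body formed after ovulation, and the opposite horn is the non-CL side. The 4 groups of 3 arrays each were CL side in summer, non-CL side in summer, CL side in autumn and non-CL side in autumn. No group is labelled as having received a treatment, and no genotype or age is given. The labels do not say whether the replicates of a group came from different cows, so p-values measure a spread between samples, not necessarily between cows. It is the spread within groups, pooled over the groups of the fit and adjusted with that of all probes.

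IGF1 and IGF2 are secreted growth factors that signal through IGF1R, a receptor tyrosine kinase that activates the PI3K and MAPK pathways. Most IGF outside cells is held by the IGF binding proteins, which prolong its life, keep it from the receptor or, after cleavage by proteases such as PAPPA, release it near the cell. In the uterus of cattle and sheep these proteins are among the secretions that reach the early conceptus, and IGFBP1 of the luminal epithelium is known there as a gene induced in the progesterone-dominated phase.

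The binding proteins are paralogs, and some of the array probes are shown here. The probes were compared only with one another and not with the transcripts of the other genes. Whether a probe also binds the transcript of a paralog was therefore not tested. Each probe is 60 bases long, and capitals mark a run of the greatest length that it shares with a probe of another of the 9 genes. The sequences are those of the deposited scanner files, 5′ to 3′.
IGFBP6: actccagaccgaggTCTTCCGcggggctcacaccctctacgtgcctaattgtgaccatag
IGFBP2: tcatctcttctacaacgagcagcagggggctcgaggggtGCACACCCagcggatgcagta
IGFBP5: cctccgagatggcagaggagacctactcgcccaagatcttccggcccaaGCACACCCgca
IGF1R: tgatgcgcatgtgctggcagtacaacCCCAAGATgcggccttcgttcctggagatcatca
The marked run of the IGFBP6 probe was 7 bases, with IGFBP5. Another run of 7 bases in this probe, not in capitals, lies within the run marked in the IGFBP2 and IGFBP5 probes. The IGFBP2 and IGFBP5 probes had the same run of 8 bases in common. The IGF1R probe shared 8 bases with the IGFBP5 probe, and across all 10 probes the longest shared run was between 6 and 8 bases. In the bovine annotation IGFBP2 and IGFBP5 are neighbours, and so are IGFBP3 and IGFBP1, with 0 protein-coding genes between them in either case.

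Levels are given as log2 of the processed signal divided by the 75th percentile of its own array, so that 0 is the level of that percentile. On the 12 arrays, 79.2 to 84.1% of probes were well above background. One array, CL side summer replicate 2 (the dim array), stood apart. Its 75th percentile was 2007 processed signal units, against 3516 to 4418 on the other 11 arrays, and its median correlation with them over probes was 0.928, below the lowest correlation of any pair among those 11, 0.970. The main results that lean on it are also given without it. Among 10 endometrial marker genes, 8 had a probe and 6 were well above background on all 12 arrays, led by MSX1, HOXA10 and SERPINA14. All 6 summer arrays and replicate 1 of both autumn groups were on one slide, and autumn replicates 2 and 3 were on another, so slide and season overlap in part.

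Relative to the 75th percentile, IGFBP4, IGFBP1 and IGFBP6 had bright probes and the ligands and receptor dim ones. The IGFBP4 probe was above it on 12 of 12 arrays, and the IGFBP1 and IGFBP6 probes on 11. None of the other 6 genes reached it on any array. Medians over the 12 arrays were 1.36 for IGFBP1, 1.34 for IGFBP6 and 0.96 for IGFBP4. They were −0.86 for IGFBP3 and −1.75 for IGFBP2. The medians of the remaining 4 probes were −2.92 for IGF2, −4.32 for IGF1R, −4.65 for IGFBP5 and −5.07 for IGF1. Probes differ in how well they hybridise, so this places each probe within its array and does not rank the transcripts. Every probe used was well above background on all 12 arrays except that of IGF1, which was on 11, while the second IGF1 probe was on 12. No spot of the 9 genes was saturated.

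The genes differed in how far they moved between arrays. IGFBP4, a binding protein that holds IGF back from its receptor until PAPPA cleaves it, had the narrowest range of log2 levels over the 12 arrays, 0.67. IGFBP3, the main carrier of IGF in blood, ranged over 1.32 and IGF1R over 1.58. The ranges were 2.10 for IGF2, 2.55 for IGFBP6, 2.92 for IGFBP5 and 3.37 for IGF1. IGFBP1 spanned 3.92 and IGFBP2 5.04. Without the dim array the ranges were 1.52 for IGFBP2, 1.56 for IGF1, 2.03 for IGFBP5 and 2.02 for IGFBP6. On that array the IGFBP2 level was −5.96, against −2.44 to −0.92 on the others, IGF1 was at the floor and IGFBP5 was at its highest.

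**Figure D1:**
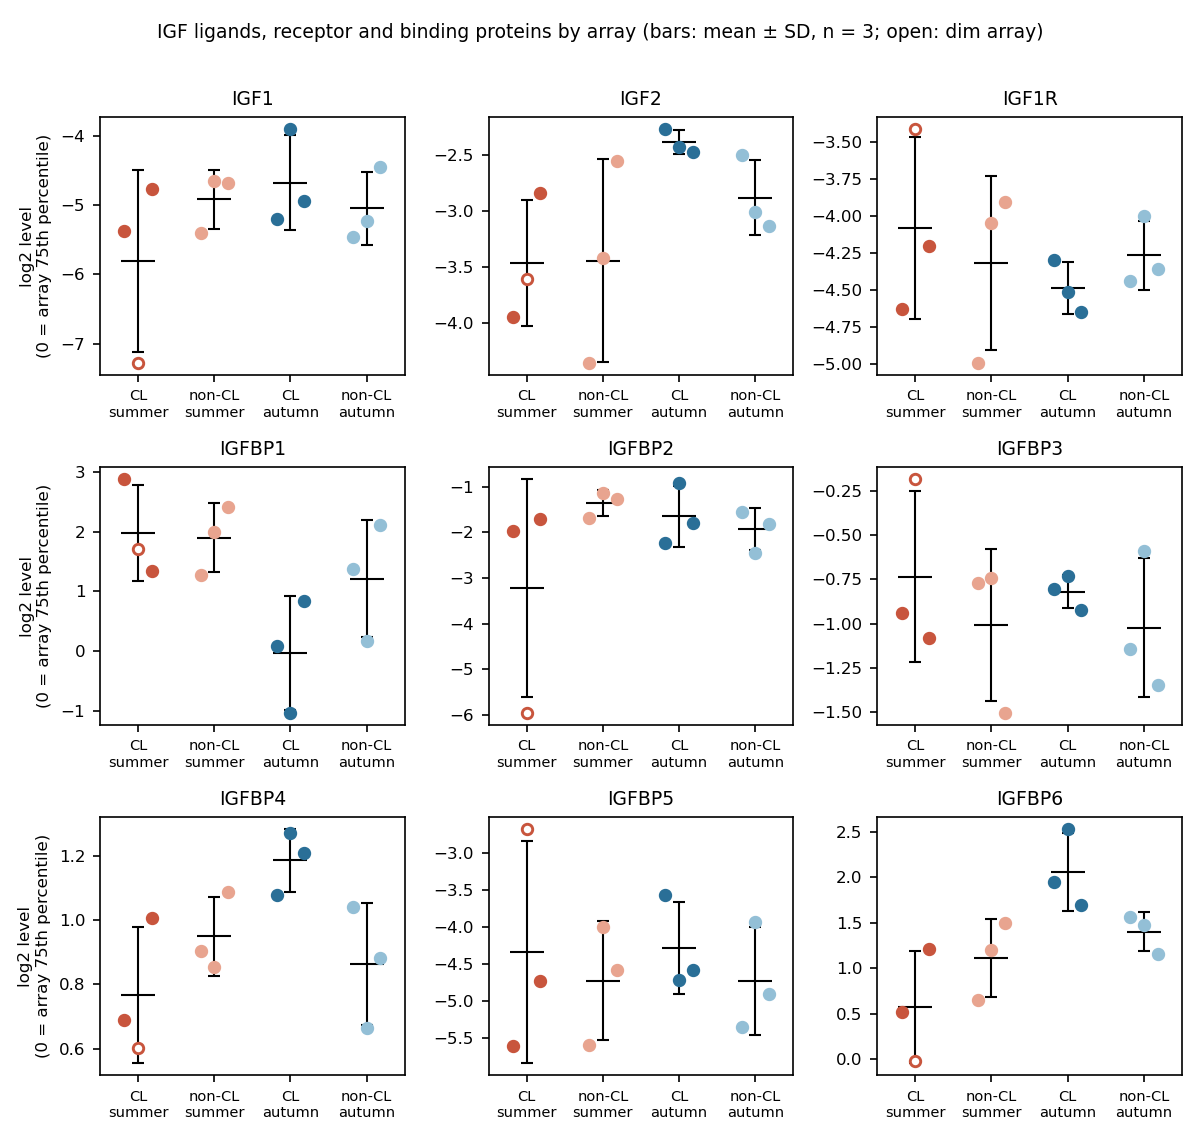
Log2 level of each of the 9 genes on every array (0 is the array's 75th percentile), with the mean ± SD of each group of 3 as bars and CL side summer replicate 2 as an open circle. The CL side summer arrays lie above the CL side autumn arrays for IGFBP1 and below them for IGF2, IGFBP4 and IGFBP6, and the vertical scales differ between panels.

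The first comparison asked how endometrium of the CL side differed between summer and autumn. IGFBP1 was 4.03-fold higher and IGFBP6 2.81-fold lower in summer, and IGF2 and IGFBP4 were lower by smaller amounts, while none of the 9 genes passed the test after adjustment. With limma and Benjamini-Hochberg adjustment over 12381 probes, 0 probes passed an adjusted p of 0.05 (0%). At an unadjusted p under 0.05 there were 1228 (9.92%). By that looser measure 4 of the 9 genes differed, 1 higher in summer against 6.37% of all probes, and 3 lower against 3.55%. The same 4 genes had summer arrays that did not overlap the autumn arrays, which held for 13.0% of all probes.

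IGFBP1 log2 levels were 2.88, 1.71 and 1.35 on the CL side in summer and 0.09, −1.04 and 0.85 on the CL side in autumn. Every summer array was above every autumn array, with 1.35 and 0.85 the closest pair. The log2 change was 2.01 ± 0.61 (SE, n = 3 each; 95% interval 0.66 to 3.37), with an adjusted p of 0.496 in limma. It was 1.87 with slide as a block and 1.89 on the first slide alone, which holds 1 autumn array of the CL side.

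IGFBP6, which binds IGF2 with much higher affinity than IGF1, had log2 levels of 0.51, −0.02 and 1.21 on the CL side in summer. In autumn the CL side gave 1.95, 2.53 and 1.70. All 3 autumn levels were higher than any summer level, and the lowest summer level came from the dim array. The log2 change was −1.49 ± 0.34 (SE, n = 3 each; 95% interval −2.23 to −0.75), with an adjusted p of 0.496 in limma. By unadjusted p it ranked 20 of 12381 probes. The change was −1.20 without the dim array, −1.52 with slide as a block and −1.38 on the first slide alone.

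IGF2, the growth factor that IGFBP6 prefers, had log2 levels of −3.95, −3.60 and −2.84 on the CL side in summer and −2.26, −2.42 and −2.47 on the CL side in autumn. The autumn arrays lay close together and above all the summer arrays. The log2 change was −1.08 ± 0.42 (SE, n = 3 each), with an adjusted p of 0.496 in limma. IGFBP4 log2 levels were 0.69, 0.60 and 1.01 on the CL side in summer and 1.08, 1.27 and 1.21 on the CL side in autumn. The groups did not overlap, with 1.01 and 1.08 the closest pair. For IGFBP4 the log2 change was −0.42 ± 0.16 (SE, n = 3 each), again with an adjusted p of 0.496 in limma. On the first slide alone these changes were −1.20 for IGF2 and −0.31 for IGFBP4.

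Which of the 4 genes stayed under an unadjusted p of 0.05 depended on single arrays. Without the dim array 2 of the 9 genes did, IGFBP1 and IGFBP6, against 5.48% of probes, and the same count was found without CL side autumn replicate 2 (5.55% of probes). Without CL side summer replicate 3 the count was 6 of 9, against 16.8% of probes.

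The other 5 genes overlapped between the seasons on the CL side. IGFBP2 log2 levels were −1.98, −5.96 and −1.71 in summer and −2.23, −0.92 and −1.79 in autumn. Its log2 change of −1.57 ± 0.91 (SE, n = 3 each) became −0.20 when the dim array was left out, so 1 array carried most of it. IGF1 log2 levels were −5.38, −7.28 and −4.77 in summer, where the middle value is the floor for a spot not well above background on the dim array. They were −5.20, −3.90 and −4.93 in autumn. The IGF1 log2 change was −1.13 ± 0.59 with this probe, −0.40 without the dim array and −0.21 with the second IGF1 probe. IGF1R (0.41), IGFBP3 (0.08, 95% interval −0.56 to 0.73) and IGFBP5 (−0.05, 95% interval −1.61 to 1.51) had smaller log2 changes, which were 0.072, −0.19 and −0.88 without the dim array. The wide interval of IGFBP5 would also hold changes larger than those of IGF2 and IGFBP6.

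Markers of cell types moved with these differences on the CL side. Of 17 stromal markers 11 were kept for testing, and 7 were lower in summer at an unadjusted p under 0.05, against 3.55% of probes. All 11 were lower in summer, with a median log2 change of −1.06 against 0.02 over all probes. Their summed signal, in units of the array's 75th percentile, was 116.0, 56.6 and 145.4 in summer and 157.9, 181.3 and 153.7 in autumn. The smallest sum was on the dim array, without which all 11 were still lower and the median was −0.70. Decorin (DCN), COL3A1 and THY1 were the brightest of the list. Of 17 epithelial markers 12 were kept, and 10 were higher and 2 lower in summer, with a median of 0.68. Epithelial sums were 42.8, 84.5 and 40.8 in summer and 38.1, 38.3 and 41.1 in autumn, and without the dim array 9 were higher and 3 lower, with a median of 0.40. Of the 6 smooth muscle markers kept, 4 were higher and 2 lower (median 0.23), and without the dim array all 6 were lower (median −0.56), where the log2 change of IGFBP5 was −0.88. Fewer cells of a type and less RNA per cell cannot be told apart in these bulk samples, and the part of the marker shifts in the changes of the IGF genes was not tested.

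IGFBP6 levels were also set beside the stromal sums array by array. In 4 of 4 groups the array with the highest IGFBP6 level had the highest stromal sum, and in 3 of 4 the lowest array was the same. For IGFBP4 the highest array matched in 4 of 4 groups and the lowest in 2 of 4. IGFBP5, which binds to extracellular matrix, was set beside 6 smooth muscle markers, led by MYLK, CNN1 and ACTG2. Its highest array had the highest smooth muscle sum in 4 of 4 groups, and its lowest array the lowest sum in 1 of 4. These pairings of genes with lists were picked after their values were seen. Among all pairings of an IGF gene with a marker list, they were the only ones whose highest array matched in 4 of 4 groups. The lowest array of IGFBP6 also matched in 3 of 4 groups for smooth muscle and for endometrial markers. For those lists its highest array matched in 0 of 4 and 2 of 4. How often such counts arise by chance over so many pairings was not tested.

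IGFBP5 log2 levels were −5.60, −2.68 and −4.73 on the CL side in summer, where the smooth muscle sums were 34.6, 129.3 and 20.0. On the CL side in autumn they were −3.57, −4.71 and −4.58, with sums of 112.5, 24.9 and 17.8. The arrays with sums of 129.3 and 112.5 thus had the highest IGFBP5 levels of all 12. On the non-CL side IGFBP5 was −5.58, −4.00 and −4.59 in summer, with sums of 17.0, 56.6 and 23.1. In autumn it was −5.35, −3.94 and −4.90 there, with sums of 16.2, 66.8 and 11.3. Each group therefore held 1 array that was high in both, and the season and side means of IGFBP5 differed by less than the spread within groups.

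**Figure D2:**
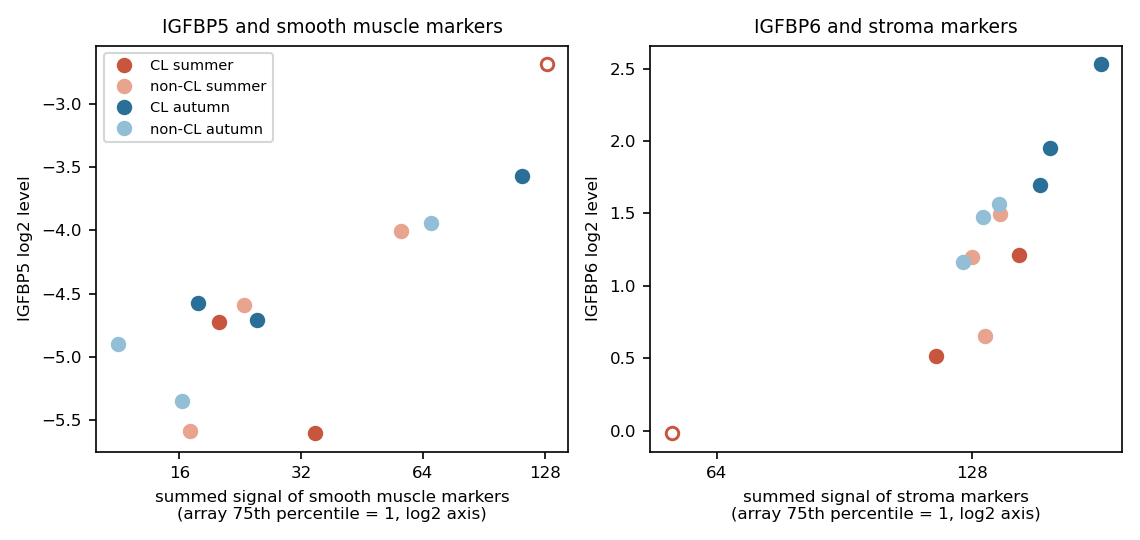
Log2 level of IGFBP5 against the summed signal of 6 smooth muscle markers (left) and of IGFBP6 against that of 11 stromal markers (right), 1 point per array and log2 horizontal axes, with CL side summer replicate 2 as an open circle. IGFBP5 is highest on the 2 arrays with smooth muscle sums of 129.3 and 112.5, and IGFBP6 is highest on the array with a stromal sum of 181.3 and lowest on that with 56.6.

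On the non-CL side the seasons overlapped for all 9 genes. By limma 0 of 12383 probes passed an adjusted p of 0.05 (0%), 139 had an unadjusted p under 0.05 (1.12%), and 6.07% of probes did not overlap between seasons. None of the 9 genes was in any of these counts, and all had an adjusted p of 1. The stromal sums were alike here, 127.7 to 138.1 in summer and 124.7 to 137.5 in autumn.

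IGFBP1 log2 levels on this side were 1.27, 2.0 and 2.42 in summer and 1.37, 0.17 and 2.11 in autumn. The log2 change was 0.68 ± 0.61 (SE, n = 3 each; 95% interval −0.67 to 2.04), and 0.16 to 1.13 with 1 array left out. IGFBP6 log2 levels were 0.65, 1.20 and 1.5 in summer and 1.57, 1.48 and 1.16 in autumn. The lowest array was a summer one, but the others interleaved, and the log2 change was −0.29 ± 0.34 (95% interval −1.03 to 0.46). For IGF2 they were −4.36, −3.42 and −2.55 in summer and −2.50, −3.01 and −3.13 in autumn, a log2 change of −0.57 ± 0.42, and −1.01 to −0.11 with 1 array left out. IGFBP4, at 0.90, 0.85 and 1.09 in summer and 1.04, 0.66 and 0.88 in autumn, differed by 0.09 ± 0.16. IGFBP2 was −1.69, −1.14 and −1.28 in summer and −1.55, −2.44 and −1.82 in autumn, a log2 change of 0.57 ± 0.91. The log2 changes of IGF1, IGFBP3, IGFBP5 and IGF1R were 0.13, 0.02, 0.01 and −0.05.

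**Figure D3:**
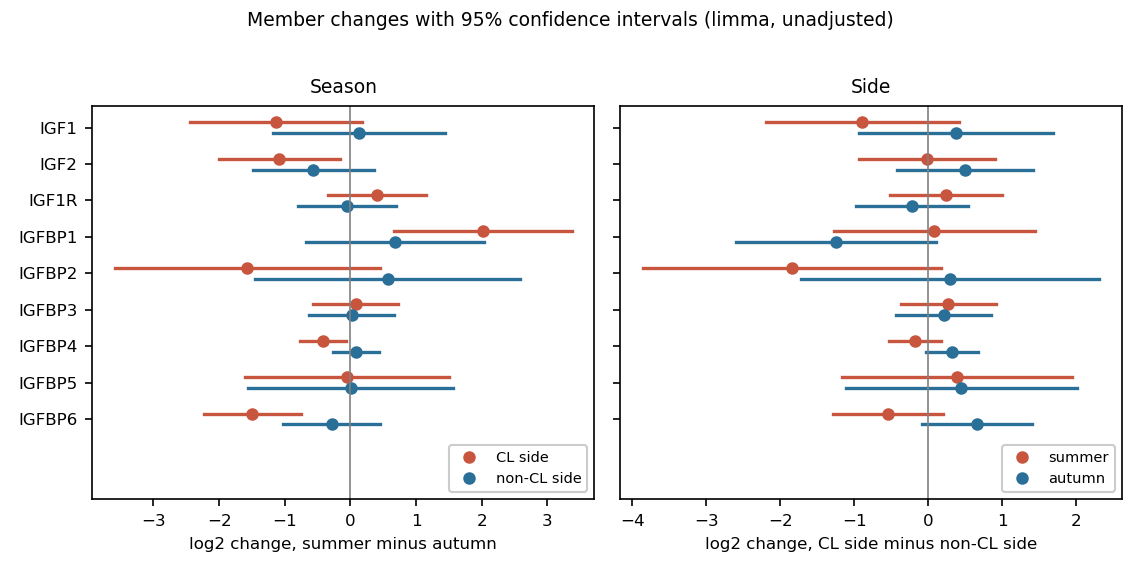
Log2 change of each gene with its unadjusted 95% confidence interval from limma, for summer minus autumn on each side (left) and for CL side minus non-CL side in each season (right). On the left the CL side intervals of IGFBP1, IGFBP6, IGF2 and IGFBP4 leave out 0, and every interval of the non-CL side and of the right panel includes 0.

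A difference seen on the CL side and not on the other is not by itself a difference between sides, so the interaction of season and side was tested. In limma 0 of 12375 probes passed an adjusted p of 0.05 (0%), and 233 had an unadjusted p under 0.05 (1.88%). Among the 9 genes 2 were among these 233, both with a more negative summer change on the CL side, against 0.622% of probes in that direction. The seasonal change of IGFBP6 on the CL side minus that on the non-CL side was −1.21 ± 0.47 log2 units (95% interval −2.26 to −0.16), with an adjusted p of 0.999. For IGFBP4 this difference was −0.50 ± 0.22 (95% interval −0.996 to −0.012), with an adjusted p of 0.999. Without the dim array they were −0.91 and −0.42 and no longer under an unadjusted p of 0.05. None of the 9 genes was under it without CL side summer replicate 1 or CL side autumn replicate 2. The same held without non-CL side summer replicate 2 or 3, or non-CL side autumn replicate 3. These fits had 0.994 to 3.40% of probes under it. Leaving out any other array gave 1 to 4 of the 9 genes, against 1.32 to 5.98% of probes. With same-numbered horns of a season as a block, 1 of the 9 genes was under it, against 4.43% of probes. The count was also 1 with slide as a block, against 1.95% of probes. The interaction of IGFBP1 was 1.33 ± 0.87, with a 95% interval of −0.59 to 3.24 that includes 0. All 11 stromal markers had a negative interaction too, with a median of −0.96, and of −0.59 without the dim array.

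With both horns of a number averaged, season was compared over 3 summer and 3 autumn means. None of 12391 probes passed an adjusted p of 0.05 in limma (0%), and 498 had an unadjusted p under 0.05 (4.02%). Of the 9 genes 2 were among these, IGFBP1 with a log2 change of 1.35 ± 0.45 and IGFBP6 with −0.89 ± 0.26 (SE, n = 3 each), both at an adjusted p of 0.895. The log2 change of IGF2 was −0.82 ± 0.36. With slide as a block the changes of IGFBP1, IGFBP6 and IGF2 were 1.21, −0.92 and −1.07, and none of the 9 genes was then under an unadjusted p of 0.05.

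The sides were then compared within autumn. IGFBP1 was lower and IGFBP6, IGFBP4 and IGF2 were higher on the CL side than on the non-CL side, without passing the test. In limma 0 of 12378 probes passed an adjusted p of 0.05 (0%) and 230 an unadjusted one (1.86%), with none of the 9 genes among them. In 3 of the 9 genes, IGF2, IGFBP4 and IGFBP6, every CL side array was above every non-CL side array, against 2.35% of all probes in that direction. The closest levels, CL side first, were −2.47 and −2.50 for IGF2 and 1.08 and 1.04 for IGFBP4, so these separations were narrow. For IGFBP6 they were 1.70 and 1.57. IGFBP6 had the largest difference of these, 0.66 ± 0.34. That of IGF2 was 0.49 ± 0.42 and that of IGFBP4 0.32 ± 0.16 (SE, n = 3 each). The levels of IGFBP1 overlapped, and its log2 change was −1.25 ± 0.61 (95% interval −2.60 to 0.11). All 11 stromal markers were higher on the CL side in autumn, with a median of 0.51 against −0.04 over all probes, and their summed signal was higher there in 3 of 3 same-numbered pairs. Smooth muscle markers were higher on the CL side for 6 of 6 (median 0.71) and leukocyte markers for 8 of 9 (median 0.21). The summed signal of either list was higher there in 2 of 3 pairs only. Smooth muscle sums were 112.5, 24.9 and 17.8 on the CL side and 16.2, 66.8 and 11.3 on the non-CL side, so replicate 1 led. Epithelial markers were lower on the CL side for 9 of 12, with a median of −0.39, and their summed signal in 2 of 3 pairs. The part of these shifts in the differences of the IGF genes was not tested.

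Horns with the same number in a season deviated together, so their differences are given pair by pair. For IGFBP1 the CL side minus the non-CL side was −1.28, −1.21 and −1.26 in autumn, almost the same in the pair of the first slide and the 2 pairs of the second. In summer the IGFBP1 differences were 1.61, −0.30 and −1.07, with no common sign. IGFBP6 differences were −0.14, −1.21 and −0.28 in summer and 0.39, 1.06 and 0.54 in autumn. Those of IGFBP4 were −0.21, −0.25 and −0.08 in summer and 0.04, 0.60 and 0.33 in autumn. Both genes thus had the CL side lower in all 3 summer pairs and higher in all 3 autumn pairs. A reversal of all pairs between the seasons, in either direction, was shown by 2.97% of all probes. In autumn 3 of the 9 genes were higher on the CL side in all pairs (8.74% of probes) and 1 was lower (17.2% of probes). With the pair as a block in limma, IGF2, IGFBP1 and IGFBP6 had an unadjusted p under 0.05 in autumn, against 4.25% of probes, and their adjusted p was 0.99.

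**Figure D4:**
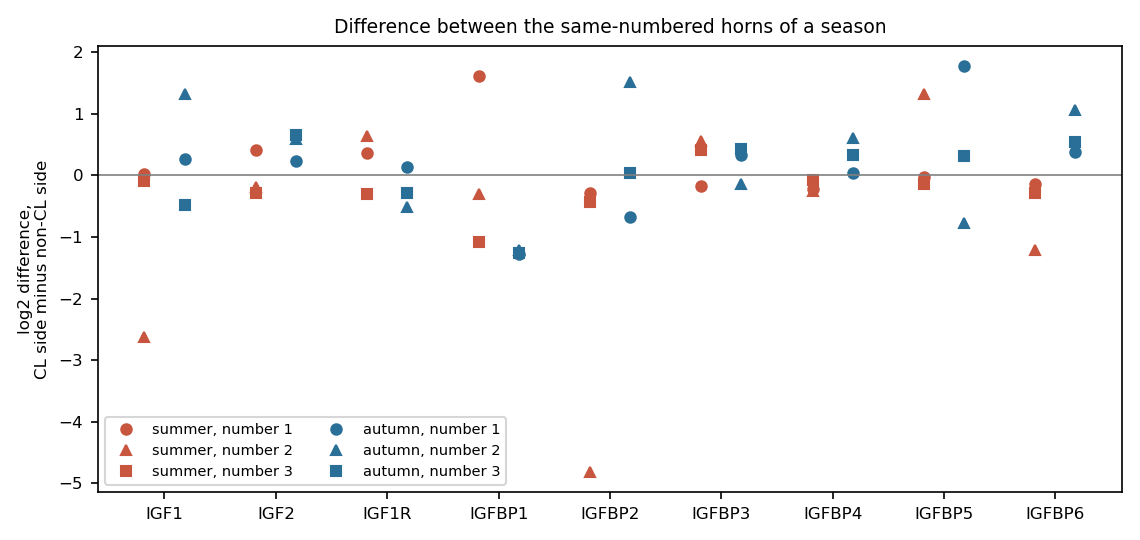
Log2 difference of the CL side minus the non-CL side for horns with the same number, 3 in summer and 3 in autumn, for each gene. The autumn differences of IGFBP1 lie together near −1.25, and those of IGFBP4 and IGFBP6 lie below 0 in summer and above 0 in autumn.

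The sides were compared in the same way within summer. By limma 0 of 12389 probes passed an adjusted p of 0.05 (0%), and 175 had an unadjusted p under 0.05 (1.41%), with none of the 9 genes among them. IGFBP2, a binding protein that can also attach to integrins of the cell surface, was the only one of the 9 genes without overlap, lower on the CL side, against 1.65% of probes in that direction. Its log2 change was −1.85 ± 0.91 (SE, n = 3 each; adjusted p = 0.984), and −0.47 without the dim array. The same-numbered differences of IGFBP2 were −0.29, −4.82 and −0.43, so that all 3 had 1 sign and the dim array set the mean. In summer 3 of the 9 genes were lower on the CL side in all pairs, IGFBP2, IGFBP4 and IGFBP6, against 11.2% of probes, and none was higher, against 11.3%. Log2 changes of the other genes lay between −0.89 for IGF1 and 0.39 for IGFBP5, and without the dim array these were −0.16 and −0.44. On all arrays the second IGF1 probe gave −0.31. Stromal markers had negative log2 changes between the sides in summer for all 11 (median −0.41), and without the dim array for 8 of 11 (median −0.11). Smooth muscle markers had positive ones for 6 of 6 (median 0.70), and without that array for 3 of 6 (median 0.018). Epithelial markers were positive for 11 of 12 (median 0.27), and without it for 7 of 12 (median 0.052). Leukocyte markers were positive for 9 of 9 (median 0.34), 2 of them at an unadjusted p under 0.05, and without it for 8 of 9 (median 0.43). The part of these shifts was not tested. Over both seasons the sides gave 0 of 12375 probes at an adjusted p of 0.05 (0%) and 205 at an unadjusted one (1.66%). None of the 9 genes was among them, and the changes ran between −0.78 for IGFBP2 and 0.42 for IGFBP5, which were −0.091 and 0.0021 without the dim array.

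The ligands and the receptor can be set out over the 4 groups. IGF2 averaged −3.46 ± 0.57 on the CL side in summer, −3.44 ± 0.91 on the non-CL side in summer, −2.38 ± 0.11 on the CL side in autumn and −2.88 ± 0.34 on the non-CL side in autumn (SD, n = 3 each). Its spread in autumn on the CL side was the smallest of the 4. IGF1R averaged −4.08 ± 0.62 on the CL side and −4.31 ± 0.59 on the non-CL side in summer, and −4.48 ± 0.18 on the CL side and −4.26 ± 0.23 on the non-CL side in autumn. The largest difference between any 2 of these means was within the spread of the summer arrays. The second probe of IGF1 averaged −5.60 ± 0.38 on the CL side and −5.29 ± 0.43 on the non-CL side in summer, and −5.39 ± 0.41 on the CL side and −5.65 ± 0.15 on the non-CL side in autumn, with overlapping arrays in all 4 comparisons of season and side. IGFBP3 averaged −0.74 ± 0.48 on the CL side and −1.01 ± 0.43 on the non-CL side in summer, and −0.82 ± 0.09 on the CL side and −1.02 ± 0.39 on the non-CL side in autumn. Its arrays overlapped between the groups of every season and side comparison.

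Of 63 other genes of the pathway, chosen with earlier results of these data known, 31 had a probe and 28 were tested, and none had an adjusted p under 0.05 in any of the 7 comparisons. On the CL side 15 were higher and 13 lower in summer, with a median log2 change of 0.04 against 0.02 over all probes, and without the dim array 14 were higher and 14 lower. SOCS3, a feedback inhibitor of cytokine and growth hormone signalling, was higher in summer by 1.11 ± 0.42. AKT1, a kinase downstream of the IGF receptor, had a log2 change of −0.98 ± 0.39, and that of GHR, the growth hormone receptor, was −1.01 ± 0.43. PIK3R1, a regulatory subunit of PI3K, followed with −0.50 ± 0.26, and the adjusted p of these 4 lay between 0.496 and 0.510 in limma. Without the dim array the log2 changes of SOCS3, AKT1, GHR and PIK3R1 were 0.65, −0.94, −0.50 and −0.26.

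In the other comparisons the pathway genes with the smallest p were these. On the non-CL side 17 were higher and 11 lower in summer, with a median of 0.08, led by CCN1, a matrix protein related to the binding proteins, at 2.18 ± 1.16. CCN2 (0.52), the protease HTRA1 (0.46) and the transcription factor STAT5B (0.18) came next. Between the sides in summer 13 were higher and 15 lower on the CL side, with a median of −0.08. ADAM12, a protease that cleaves binding proteins, had a log2 change of −2.18 ± 1.23 that included the dim array at the floor, where it was not well above background, and −0.95 without that array. GHR, STC1 and SOCS2 had −0.55, −0.49 and −0.48, and −0.050, −0.022 and −0.070 without it. In autumn 18 were higher and 10 lower on the CL side, with a median of 0.07 against −0.04 over all probes. The leading genes there were CCN3 at 0.66, STAT5B at 0.37, CISH at −0.34 and the PI3K subunit PIK3CB at −0.40.

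Genes whose log2 levels followed each of the 9 most closely over the 12 arrays were listed by Pearson's r among 5182 named genes (5183 for IGF1), as a description of arrays that share depth and tissue makeup. Those nearest to IGFBP6 were STMN1 (r = 0.95, Spearman's rho = 0.99), NDN (r = 0.95) and the matrix gene MXRA5 (r = 0.93). Nearest to IGFBP1 were CPT1B (r = 0.95, rho = 0.90), GIPC2 (r = 0.94) and SLC11A2 (r = 0.94), which were as close without the dim array, at 0.95, 0.96 and 0.96. STK25 (r = 0.92, rho = 0.83), AKT1 (r = 0.92) and SLC27A1 (r = 0.91) were nearest to IGF2. IGFBP4 was followed by GALT (r = 0.93), CCDC102A (r = 0.92) and TNC (r = 0.91).

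IGFBP5 ran with ALOX12B (r = 0.97, rho = 0.96), TENT5B (r = 0.96) and the actin-binding FLNA (r = 0.94). The closest genes to IGF1R were ZDHHC12 (r = 0.98), the tropomyosin gene TPM2 (r = 0.93) and PPP1R9A (r = 0.93). IGFBP3 was followed by C7, MAPK14 and CCS, at r of 0.90, 0.90 and 0.89. For IGFBP2 the list rested on 1 array. APCDD1, DIO2 and P4HA3 had r of 0.97 each over 12 arrays, and 0.73, 0.70 and 0.70 over the 11 without the dim one. Those of IGF1, which were DNMT3A, STARD3NL and DOK6 (r of 0.95, 0.94 and 0.94), likewise dropped to 0.82, 0.80 and 0.80.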

How the data were processed

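Cy3-labelled RNA of 12 endometrial samples was hybridised to one-colour Agilent bovine arrays, 1 array per sample. The authors' scanner files hold spot intensity after background correction, produced by Agilent Feature Extraction 9.5, per the file headers and the submitters' processing notes. The deposited value table holds the authors' log2 values. Its 75th percentiles were close to 0 and its column medians between −2.79 and −2.61, it correlated with the values used here at 0.982 to 0.998, and its treatment of low signals is unknown. Of 15208 probes 6941 were named through RefSeq symbols.

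Processed intensities were divided by the 75th percentile of their array, set to a floor of −7.28 (log2) where lower and taken to log2. For each array the dimmest spot still well above background was found, and the floor is the largest of these. In all 466 values flagged as outliers were left out. The 12404 probes well above background on every array of at least 1 group entered the fit (limma 3.58.1, R 4.3.3), with 1 mean per group (8 residual degrees of freedom) or on 6 means over both horns (4 residual degrees of freedom), and Benjamini-Hochberg adjustment over those with values. The fit was tested on simulated data.

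Samples carrying the same replicate number deviated together. Same-numbered horns of a season correlated at 0.150 to 0.521 and other horns at −0.421 to 0.0759. Across seasons these were 0.110 to 0.351 and −0.277 to 0.0561. The pairing comes from the numbers in the sample titles.

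All 9 genes were named, with the up to 4 pathway genes of smallest p per comparison, the 3 genes most like each gene, and the 3 brightest markers of a list. Genes and lists were chosen with earlier results of these data known. Lists of ciliated cells, endothelium, leukocytes, red cells and endometrium were also summed. Alternatives were another background correction, quantile normalization, other filters on dim probes, the authors' values, the mean over a gene's probes, slide and replicate blocks, single slides and leaving out each array.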

Additional observations from a re-analysis of the deposited data

Results flagged for a closer look

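For IGFBP6 the CL side was below the non-CL side in all 3 same-numbered pairs of summer and above it in all 3 pairs of autumn. The summer difference minus the autumn difference was −1.21 log2 units, with an unadjusted p of 0.0283 and an adjusted p of 0.999 in limma. IGFBP4 was opposite between the seasons in the same way, with −0.50 log2 units, an unadjusted p of 0.0457 and an adjusted p of 0.999 in limma. Without the dim array they were −0.91 and −0.42, and neither had an unadjusted p under 0.05. Neither did when some other arrays were left out singly, among them CL side summer replicate 1 and CL side autumn replicate 2. Among all probes 2.97% had the same-numbered pairs all opposite between the seasons, in either direction. The summed signal of stromal genes was below that of the non-CL side in 2 of 3 summer pairs and above it in 3 of 3 autumn pairs, and their part in these differences was not tested.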

How the results depend on the processing

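Of 1053 changes of the 9 genes under the alternatives, 0 passed an adjusted p of 0.05 in limma and 74 had the other sign, 57 of them with 1 array left out. The replicate block changed no call. Under it 0 probes passed in any comparison, and those at an unadjusted p under 0.05 numbered 1602 (summer against autumn, CL side), 244 (non-CL side), 422 (sides in summer), 526 (sides in autumn), 548 (interaction), 452 (sides over both seasons) and 705 (seasons over both sides). On the first slide alone 1 probe passed for season on the non-CL side. With 1 array left out, the probes past the threshold ran from 0 to 7 for season on the CL side, 0 to 1 for sides in summer, 0 to 6 for sides in autumn, 0 to 1 for the interaction and 0 to 1 for sides over both seasons. The 3 arrays per group and the slides shared in part with season limit what could be called, and a lone array left on a slide is assumed to vary like the others. Values of marker lists, pathway genes and ranges without CL side summer replicate 2 were added after seeing the data, and of these the smooth muscle median for season on the CL side changed sign, to −0.56. The causes of the sign changes below were not tested.

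For season on the CL side, IGFBP5 was 0.016 with normexp. On the non-CL side, quantile normalization gave −0.0028 for IGFBP3 and −0.042 for IGFBP5, the slide block −0.041 for IGFBP5, and the first slide 0.12 for IGF1R and −0.092 for IGFBP4. Over both sides, IGFBP5 was 0.024 with normexp. Between sides in summer IGF2 was 0.024 with normexp and 0.033 with the authors' values. In autumn IGF1R was 0.059 with the authors' values and 0.14 on the first slide, IGFBP2 was −0.68 on the first slide and IGFBP5 −0.22 on the second. The interaction of IGFBP3 was −0.065 on the first slide. Over both seasons IGF1 was 0.27 with the authors' values, and IGFBP4 and IGFBP6 were −0.072 and −0.078 on the first slide.

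Leaving out 1 array changed signs within these ranges. Season, CL side: IGFBP3 −0.19 to 0.26 and IGFBP5 −0.88 to 0.58. Season, non-CL side: IGF1 −0.077 to 0.43, IGF1R −0.26 to 0.29, IGFBP3 −0.14 to 0.27, IGFBP4 −0.013 to 0.17 and IGFBP5 −0.36 to 0.44. Season over both sides: IGFBP2 −1.30 to 0.30, IGFBP3 −0.043 to 0.14 and IGFBP5 −0.32 to 0.27. Interaction: IGFBP3 −0.21 to 0.24 and IGFBP5 −0.89 to 0.57. Sides in summer: IGF1R −0.10 to 0.51, IGF2 −0.48 to 0.43, IGFBP1 −0.37 to 0.39, IGFBP3 −0.0037 to 0.45 and IGFBP5 −0.44 to 1.02. Sides in autumn: IGF1 −0.016 to 0.67 and IGFBP2 −0.072 to 0.58. Sides over both seasons: IGF1 −0.52 to 0.11, IGF1R −0.16 to 0.14 and IGFBP6 −0.10 to 0.20.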

Other observations

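Markers of other cell types were summed on the same arrays, in units of the array's 75th percentile. Ciliated epithelium markers (7 of 8 kept) summed to 8.20 to 13.8 on the CL side in summer and 4.34 to 9.46 on the CL side in autumn, and to 8.44 to 10.8 on the non-CL side in summer and 3.83 to 12.6 on the non-CL side in autumn. All 7 were higher in summer on either side, with median log2 changes of 1.24 on the CL side and 0.70 on the non-CL side. Without the dim array 6 of 7 were higher on the CL side, with a median of 0.76. With it 3 of the 7 were higher there at an unadjusted p under 0.05 in limma, against 6.37% of all probes. CAPS and TPPP3 were the brightest of this list. Endothelial markers (9 of 11 kept) summed to between 6.87 and 9.96 in all 4 groups. On the non-CL side the sums were 8.12 to 9.96 in summer and 6.97 to 8.19 in autumn, with all 9 higher in summer (median 0.18). On the CL side 5 were higher and 4 lower in summer (median 0.01). Leukocyte markers (9 of 11 kept), led by ITGB2 and TYROBP, summed to 2.53 to 3.20 on the CL side in summer and 1.72 to 2.32 on the CL side in autumn. Of the 9, 6 were higher and 3 lower in summer there (median 0.12), with log2 changes from −0.37 to 1.99. Without the dim array 7 were higher and 2 lower (median 0.19). On the non-CL side the leukocyte sums were 1.57 to 2.08 in summer and 1.19 to 1.94 in autumn, with all 9 higher in summer (median 0.07). Of the red cell list only ALAS2 was kept, with 0.425 to 0.615 on the CL side in summer and 0.367 to 0.412 on the CL side in autumn. None of these lists had a gene with an adjusted p under 0.05 in limma.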
